A study of Arabidopsis thaliana with 16 samples.

Results

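The chloroplast genome of Arabidopsis was followed here through its transcripts in warm-grown hypocotyls. The members were every row of the deposited count table whose locus code begins with ATCG, the prefix of the plastid chromosome, and whose counts summed to at least 15 over all libraries. Of 133 such rows 121 met this rule, out of 33296 named rows in the table, and 12 fell below it. The lowest member had 16 counts in all and the highest row left out had 10. The expression filter kept 119 of the 121, which are the members tested below.

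Plastids keep a small circular genome of their own. Its protein genes encode subunits of the photosystems, the cytochrome complex, the ATP synthase, the NDH complex, Rubisco, the plastid ribosome and a bacterial-type RNA polymerase. It also carries the plastid ribosomal and transfer RNAs. Most are transcribed as long units holding several genes and then cut and trimmed by nuclear-encoded proteins. Plastid transcripts as a rule lack the long poly(A) tails of nuclear mRNA, so a library kit that selects poly(A) RNA captures them only in part. In light-grown seedling stems the green cells beneath the epidermis hold chloroplasts, which carry many copies of this genome.

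Seedlings of 4 genotypes were grown for 6 days on plates under long days at 28 °C or 22 °C, and whole hypocotyls, the embryonic stems, were taken for stranded mRNA sequencing. The genotypes were brl3-2, a T-DNA mutant of the brassinosteroid receptor gene BRL3; the complementation line pSUC2:BRL3;brl3-2, written pSUC2-BRL3 below, which carries BRL3-GFP under the SUC2 promoter of phloem companion cells in the brl3-2 mutant; BRL3ox, which carries BRL3-GFP under the general 35S promoter; and Col-0, the wild type. Each of the 8 groups had 2 libraries, 16 in all, and the labels call them biological replicates without saying more, so the tests gauge spread between the libraries as deposited, which may be partly technical. The labels do not say whether each transgenic line is a single insertion event. In the whole tissue, fewer plastids or green cells and less plastid RNA in each cell cannot be told apart.

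Libraries held 23021365 to 26563600 counts at 28 °C, against 19013878 to 22791228 counts at 22 °C. BRL3 stood at 0.531 to 1.04 CPM in brl3-2, 38.6 to 178 CPM in pSUC2-BRL3, 715 to 2478 CPM in BRL3ox and 10.5 to 28.8 CPM in Col-0, where CPM are library-size-normalised counts with TMM scaling (edgeR CPM). Its level was not fixed within a line. In pSUC2-BRL3 it was 171 and 178 CPM at 28 °C, against 66.2 and 38.6 CPM at 22 °C. In BRL3ox it was 2186 and 2478 CPM at 28 °C, against 715 and 817 CPM at 22 °C. Col-0 had 22.9 and 28.8 CPM at 28 °C, against 19.5 and 10.5 CPM at 22 °C. Of 6 root markers, 4 had at most 10 counts in any library, while the others reached 659 and 260 counts. Of 4 shoot apex markers WUS had at most 2 counts and CLV3 at most 7, while ANT reached 558 and STM 244. These higher root and apex markers had counts in every library. Replicates of BRL3ox at 22 °C lay at least 2-fold apart in 13.2% of the genes tested and those of pSUC2-BRL3 at 28 °C in 3.29%, against at most 1.66% in the other 6 groups. From these groups, replicate 2 of the BRL3ox pair and replicate 1 of the pSUC2-BRL3 pair were taken as the 2 doubted libraries, although a pair does not show which of its libraries departs.

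The reference annotation used here, TAIR10.1 from RefSeq, lists 129 plastid genes on a chromosome of 154478 bases, of which 85 encode proteins, 37 transfer RNAs and 7 ribosomal RNAs. It names them under another set of locus tags than the ATCG codes. Its notes on nuclear genes mention a few of the codes as the plastid counterpart, and the plastid gene behind a code was then found by sequence search with that nuclear gene; 6 codes are named below. The notes themselves name no gene for ATCG00420, and for ATCG00430 they say photosystem II reaction center protein G, so ndhJ and ndhK are the names of the genes found by sequence. The other members are given by their code, without a gene name or a role. ATCG00420 was ndhJ (plastid 48677 to 49153, minus strand), and ATCG00430 was ndhK (49257 to 49934, minus strand); both encode subunits of the NDH complex, which returns electrons to the plastoquinone pool. ATCG00530 was cemA (60741 to 61430, plus strand), a protein of the inner envelope membrane. ATCG00660 was rpl20 (68512 to 68865, minus strand), a protein of the plastid ribosome. ATCG00670 was clpP (69910 to 71882, minus strand, 3 coding parts), the proteolytic subunit of the stromal Clp protease. ATCG01310 was rpl2, another ribosomal protein gene, which the reference holds as a pair of copies. Over these 6 the codes rose with the position on the chromosome.

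Read assignment can blur a plastid count in several ways, and the annotation used here shows 2 of them. The nuclear locus AT4G13285 on chromosome 4 is a pseudogene of ATCG00420, 188 bases long, and 169 aligned columns with 3 gaps were 88.2% identical to ndhJ. The first pair of lines below shows 60 bases of that alignment, where capitals mark the 5 bases that differ. AT4G13285 had no row in the count table. The second pair shows the first 60 bases of both rpl2 copies from the start codon, in capitals. The copies, at 84337 to 85843 on the minus strand and 152806 to 154312 on the plus strand, matched over all 1507 bases with 0 mismatches, so no read within them can be placed in only 1 copy. The reference gives 2 entries to 7 protein-coding symbols. Members without a gene name were not checked for such copies, so 1 gene may be counted under 2 codes.
AT4G13285 (TAIR10.1, chr4:7738696-7738755, plus strand): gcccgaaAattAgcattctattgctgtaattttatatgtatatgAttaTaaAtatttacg
ndhJ (TAIR10.1, plastid 48999 to 49058, minus strand): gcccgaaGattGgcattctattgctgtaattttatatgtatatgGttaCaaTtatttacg
rpl2, copy 1 (TAIR10.1, plastid 85784 to 85843, minus strand): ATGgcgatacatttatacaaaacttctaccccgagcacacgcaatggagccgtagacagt
rpl2, copy 2 (TAIR10.1, plastid 152806 to 152865, plus strand): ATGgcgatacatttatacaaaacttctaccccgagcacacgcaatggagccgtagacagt

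Plastid transcripts took a smaller share of the library at 28 °C in all 4 genotypes. The members held 0.90% to 1.54% of the counts at 28 °C, with a median of 1.07%, and 1.63% to 4.66% at 22 °C, with a median of 2.47% (8 libraries each). The temperatures did not overlap, even across genotypes. In brl3-2 the share was 0.984% ± 0.119 at 28 °C and 2.11% ± 0.114 at 22 °C (SD, n = 2, as for the groups that follow). In pSUC2-BRL3 it was 1.36% ± 0.263 at 28 °C and 3.04% ± 0.250 at 22 °C. In BRL3ox it was 1.04% ± 0.0336 at 28 °C and 1.89% ± 0.368 at 22 °C. Col-0 had 1.22% ± 0.319 at 28 °C and 3.70% ± 1.35 at 22 °C, and its replicates at 22 °C, at 4.66% and 2.75%, were the farthest apart of any group. These shares are sums over the members and were given no test. Capture of plastid RNA may vary between stranded mRNA libraries, and its part in these shares and in the differences below was not tested.

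**Figure D1:**
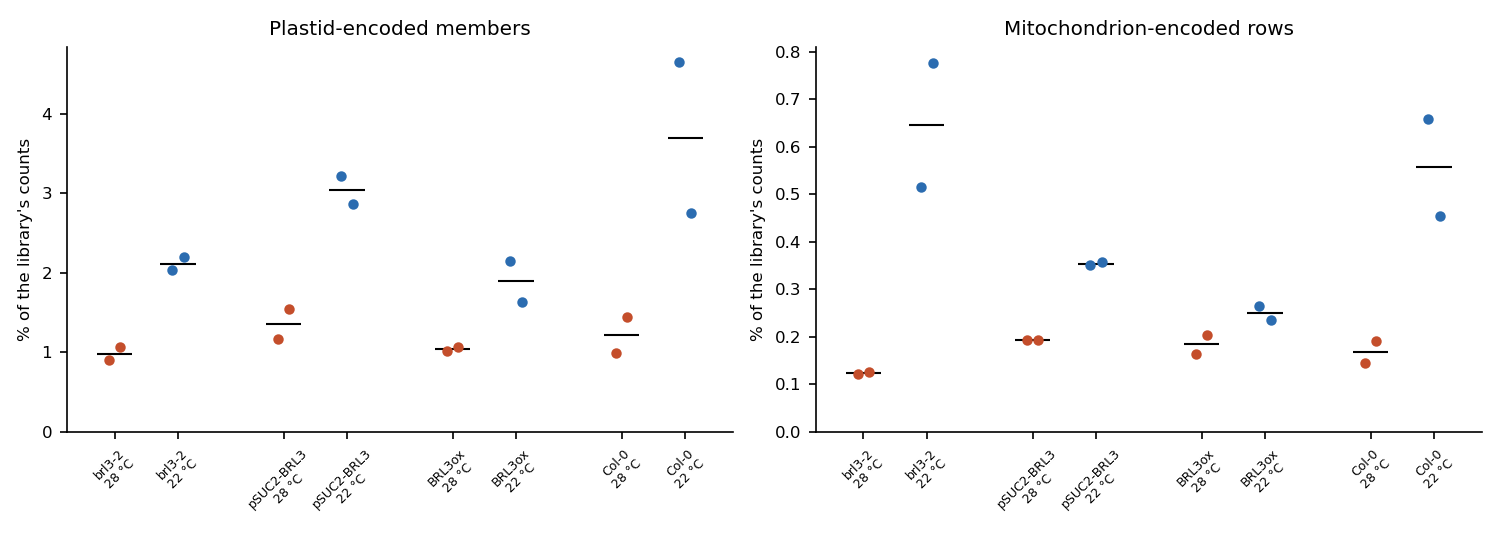
Share of each library's counts on the plastid-encoded members (left) and on mitochondrion-encoded rows (right), in percent. Each point is a library, the line is the mean of the 2 libraries of a group, and both panels show every library at 28 °C below every library at 22 °C.

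The summed share of the mitochondrion-encoded rows was also lower at 28 °C, while averaged over genotypes more of its single rows rose than fell. These rows held 0.123% to 0.203% of counts at 28 °C and 0.235% to 0.778% at 22 °C, but the row with the most counts took 52.0% of them and the first 3 rows 88.5%. Averaged over genotypes, 25 of the 50 mitochondrial rows tested rose at 28 °C and 12 fell, with a median log2 difference of 0.40. Library totals were higher at 28 °C as well, and so were the TMM factors, at 1.16 to 1.27 against 0.736 to 0.897 at 22 °C. The part of these in the plastid result was not tested.

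A large part of the plastid counts lay in a few members. ATCG00480 was the largest single member in 14 of the 16 libraries. The largest was ATCG00790 in replicate 1 and ATCG00680 in replicate 2 of brl3-2 at 22 °C. The 10 leading members of a library together held 46.3% to 71.4% of its plastid counts. ATCG00480 took 27% and 25% of the plastid counts in brl3-2 at 28 °C, against 4.94% and 5.17% at 22 °C. In pSUC2-BRL3 it took 22.7% and 23.0% at 28 °C, against 23.3% and 13.8% at 22 °C. In BRL3ox it took 21.9% and 24.9% at 28 °C, against 17.5% and 19.4% at 22 °C. In Col-0 it took 15.4% and 11.2% at 28 °C, against 9.50% and 10.5% at 22 °C. At the other end, 11 of the 121 members averaged under 10 counts a library and 9 had no count in at least 1 library.

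The first comparison asked how growth at 28 °C changed each plastid transcript in Col-0, relative to the other genes of the same libraries. Tests were edgeR quasi-likelihood F-tests, Benjamini-Hochberg adjusted over 20505 genes, with a call at an adjusted p below 0.05. Of the 119 members tested 106 fell, where 23.3% of all genes tested fell and 21.7% rose, and the other 13 did not pass. The median log2 difference was -2.22, against 0.02 over all genes, and the middle 50% of the members lay between -2.65 and -1.78. Both libraries at 28 °C were below both at 22 °C for 114 members and 5 overlapped, where 39.2% of all genes tested lay below in this way and 40.8% above. The count of called members was 71 without replicate 1 of Col-0 at 22 °C and 70 without replicate 1 of Col-0 at 28 °C.

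The named members show the size of this fall in Col-0. ndhK stood at 435 and 367 CPM at 28 °C, against 1568 and 1247 CPM at 22 °C, and fell by 1.81 on the log2 scale (SE 0.21, adjusted p = 9.35e-05). ndhJ stood at 248 and 225 CPM at 28 °C, against 709 and 572 CPM at 22 °C (log2 -1.44, SE 0.20, adjusted p = 0.000238). clpP stood at 98.6 and 157 CPM at 28 °C, against 695 and 311 CPM at 22 °C (log2 -1.98, adjusted p = 0.000974). In each of these genes the groups were well apart, and replicate 1 at 22 °C was the higher. cemA, at 25.9 and 57.6 CPM against 332 and 115 CPM, fell by 2.42 (adjusted p = 0.00283). rpl20, at 42.3 and 70.4 CPM against 329 and 168 CPM, fell by 2.14 (adjusted p = 0.00194). Both replicates at 28 °C were below both at 22 °C in all 5 of these genes.

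The same fall was seen in brl3-2 for most members, with more spread among them. Of 119 members 83 fell and 3 rose, where 23.3% of all genes fell and 25.8% rose, with a median of -2.17 against 0.04 over all genes. The middle 50% of members lay between -3.19 and -1.28, a range of 1.90, against 0.87 in Col-0. rpl20 had 17.6 and 15.9 CPM at 28 °C, against 280 and 257 CPM at 22 °C, and fell by 4.0 (SE 0.46, adjusted p = 5.12e-05). This was the largest difference among the named members in brl3-2.

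The 3 members that rose in brl3-2 were ATCG00480, ATCG01110 and ATCG01300. ATCG00480 had 1965 and 2151 CPM at 28 °C, against 1191 and 1265 CPM at 22 °C (log2 0.74, SE 0.27, adjusted p = 0.0401). ATCG01110 had 77.3 and 89.1 CPM at 28 °C, against 29.6 and 45.3 CPM at 22 °C (log2 1.15, SE 0.44, adjusted p = 0.0474). ATCG01300 was counted 24 times in the libraries at 28 °C and 2 times in those at 22 °C, a ratio of 6.99 with a 95% counting interval of 1.73 to 61.0. The call of ATCG00480 held in 8 and that of ATCG01110 in 4 of the 16 fits that left out 1 library. The largest falls in brl3-2 were in low-count members. ATCG00980 had 0 counts at 28 °C and 36 at 22 °C, at least 20.6-fold lower at 28 °C, and ATCG01150 had 0 and 21 counts, at least 12.0-fold lower, taking 3 counts over the group as the floor. The same 2 members had 3 and 0 counts in Col-0 at 28 °C, against 9 and 9 counts at 22 °C.

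In pSUC2-BRL3 69 members fell, where 19.5% of all genes fell and 19.6% rose, and 50 did not pass. The median was -1.59, against 0.03 over all genes. rpl20 had 40.7 and 24.4 CPM at 28 °C, against 182 and 278 CPM at 22 °C (log2 -2.82, SE 0.43, adjusted p = 0.000603). ndhJ had 323 and 497 CPM at 28 °C, against 812 and 854 CPM at 22 °C (log2 -1.02, adjusted p = 0.00213). cemA fell by 1.46, a call that held in 10 of 16 fits without 1 library. ATCG00830 fell by 4.96 (adjusted p = 0.00433), but it had 4267 counts in replicate 2 at 22 °C against 46 to 227 in the other 15 libraries, and the difference was -1.11 without that library and did not pass. The count of called members was 47 without replicate 1 of pSUC2-BRL3 at 28 °C.

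In BRL3ox 84 members fell, where 19.3% of all genes fell and 18.3% rose, and 35 did not pass. The median was -1.76, against -0.01 over all genes. ATCG00540 had 21.6 and 12.8 CPM at 28 °C, against 211 and 198 CPM at 22 °C, and fell by 3.57 (SE 0.48, adjusted p = 0.000283). ATCG01190 had 1.03 and 1.34 CPM at 28 °C, against 11.2 and 13.3 CPM at 22 °C, and fell by 3.36 (adjusted p = 0.000133). Both kept their calls in all 16 fits without 1 library. rpl20 fell by 2.37, cemA by 2.29, ndhK by 1.63, clpP by 1.6 and ndhJ by 1.30 (adjusted p from 0.000233 to 0.0052). The count of called members was 49 and 95 without replicate 1 or 2 of BRL3ox at 22 °C, and 54 and 48 without replicate 1 or 2 of BRL3ox at 28 °C.

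**Figure D2:**
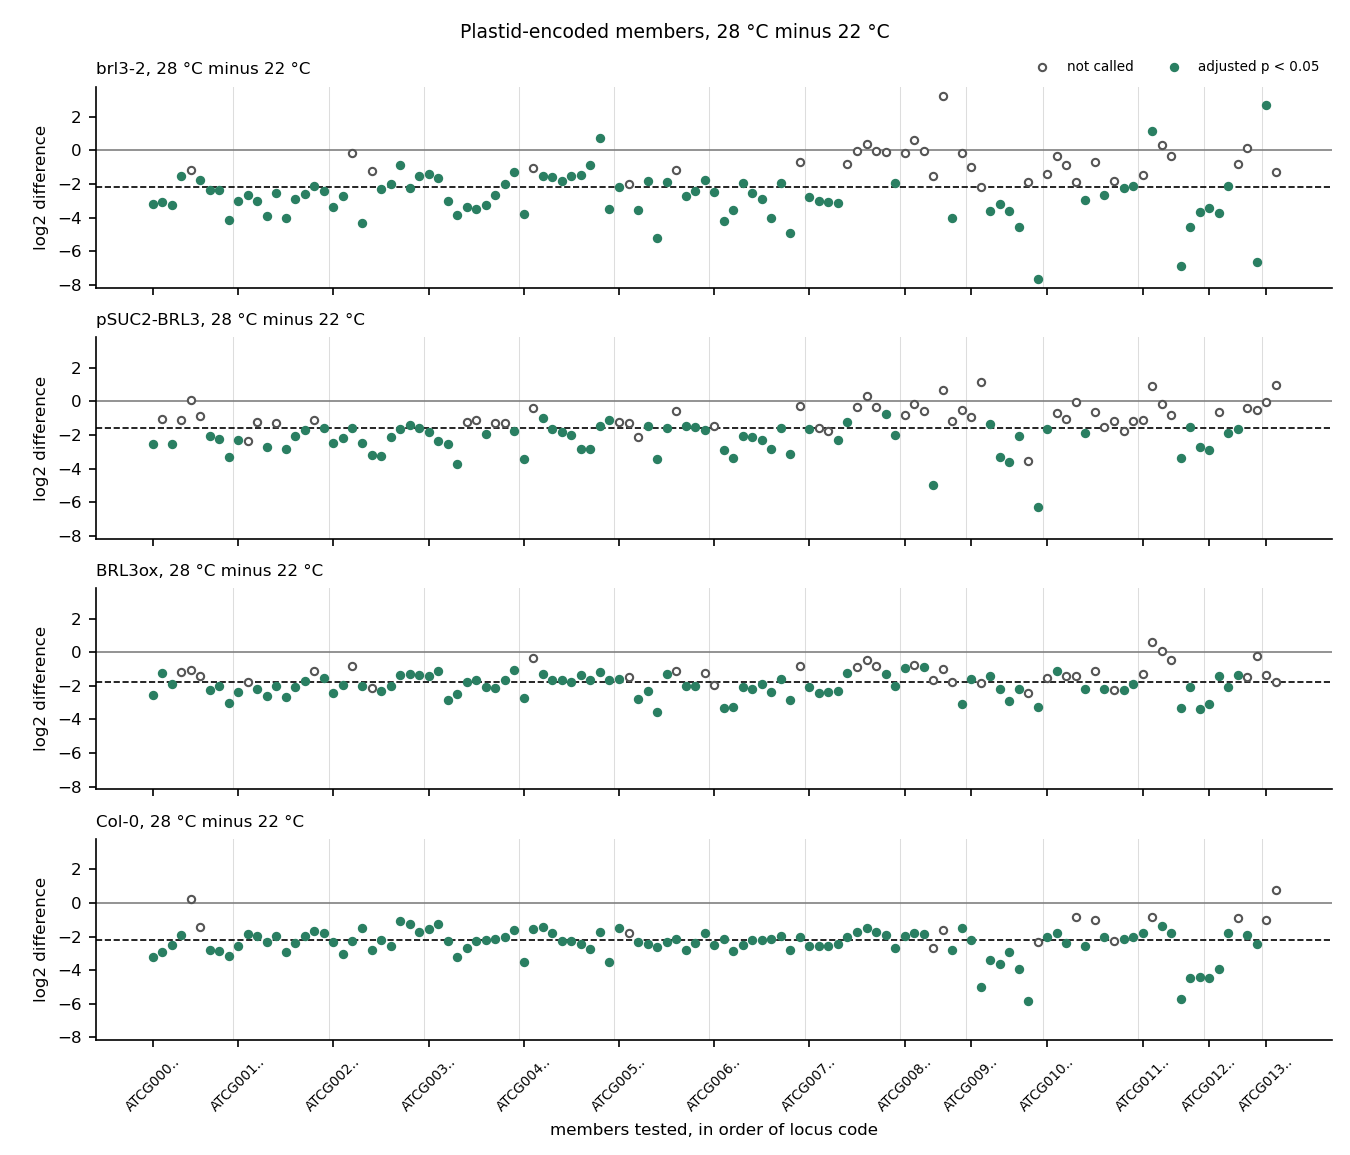
Log2 difference, 28 °C minus 22 °C, of each of the 119 members tested, in order of locus code, in brl3-2, pSUC2-BRL3, BRL3ox and Col-0. Filled points passed an adjusted p below 0.05, the dashed line is the median over members (-2.17, -1.59, -1.76 and -2.22 from top to bottom), and nearly all points lie below 0.

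Most members were lower at 28 °C in every genotype. With the 4 contrasts averaged, 111 of 119 fell, where 33.5% of all genes fell and 35.9% rose, with a median of -2.05 against 0.03. In all 4 genotypes 59 members fell, where 10.6% of all genes tested did. Another 20 fell in 3 genotypes, 15 in 2 and 16 in 1. The difference was below 0 in all 4 genotypes for 108 members. For these last counts no share over all genes was computed, while 19.3% to 23.3% of all genes fell in single genotypes. The largest averaged falls on members with counts in every library were in ATCG00540 (log2 -3.72, SE 0.24, adjusted p = 1.66e-07) and ATCG01190 (log2 -3.54, SE 0.20, adjusted p = 7.43e-08). Of the named genes rpl20 fell by 2.83 on average (SE 0.22, adjusted p = 5.42e-07), cemA by 1.99, clpP by 1.77, ndhK by 1.67 and ndhJ by 1.33.

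Per kilobase of coding sequence the named genes kept a similar order at both temperatures. The median over 8 libraries was 699.5 CPM per kilobase at 28 °C for ndhK, 559 for ndhJ, 125 for clpP, 74.0 for rpl20, 21.8 for cemA and 7.13 for rpl2. At 22 °C the medians were 2268 for ndhK, 1517 for ndhJ, 619.8 for rpl20, 406 for clpP, 74.7 for cemA and 20.9 for rpl2. ndhK and ndhJ headed both orders, while clpP and rpl20 changed places. At 28 °C the range of ndhK, 542 to 1397, overlapped that of ndhJ, 472 to 1042, and both lay above clpP, which reached 266. At 22 °C the lowest ndhK value, 1799, was just above the highest ndhJ value, 1789.95, and rpl20 reached 929, below the lowest ndhJ value of 1198. The ranges of the other neighbours in these orders overlapped at both temperatures. The place of rpl2 is uncertain, since its copies are identical and the handling of reads they share is not stated.

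rpl2, the gene with 2 identical copies, gave no readable difference. It stood at 5.64 and 5.52 CPM in brl3-2 at 28 °C, against 13.9 and 13.6 CPM at 22 °C. In pSUC2-BRL3 it had 82.0 and 6.13 CPM at 28 °C, against 22.7 and 22.4 CPM at 22 °C. In BRL3ox it had 60.0 and 3.72 CPM at 28 °C, against 12.9 and 206 CPM at 22 °C. Single libraries stood far above their replicate here, as in Col-0 at 28 °C with 55.3 and 3.95 CPM, against 18.2 and 16.3 CPM at 22 °C. The averaged difference was -0.33 (SE 0.73, adjusted p = 0.699). All these values are those of ATCG01310, and the code of the other copy is not known from the sources used here. This count depends on how the counting step divided reads between identical copies, a setting that is not given in the sources used here. Its part in the jumps of single libraries was not tested.

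**Figure D3:**
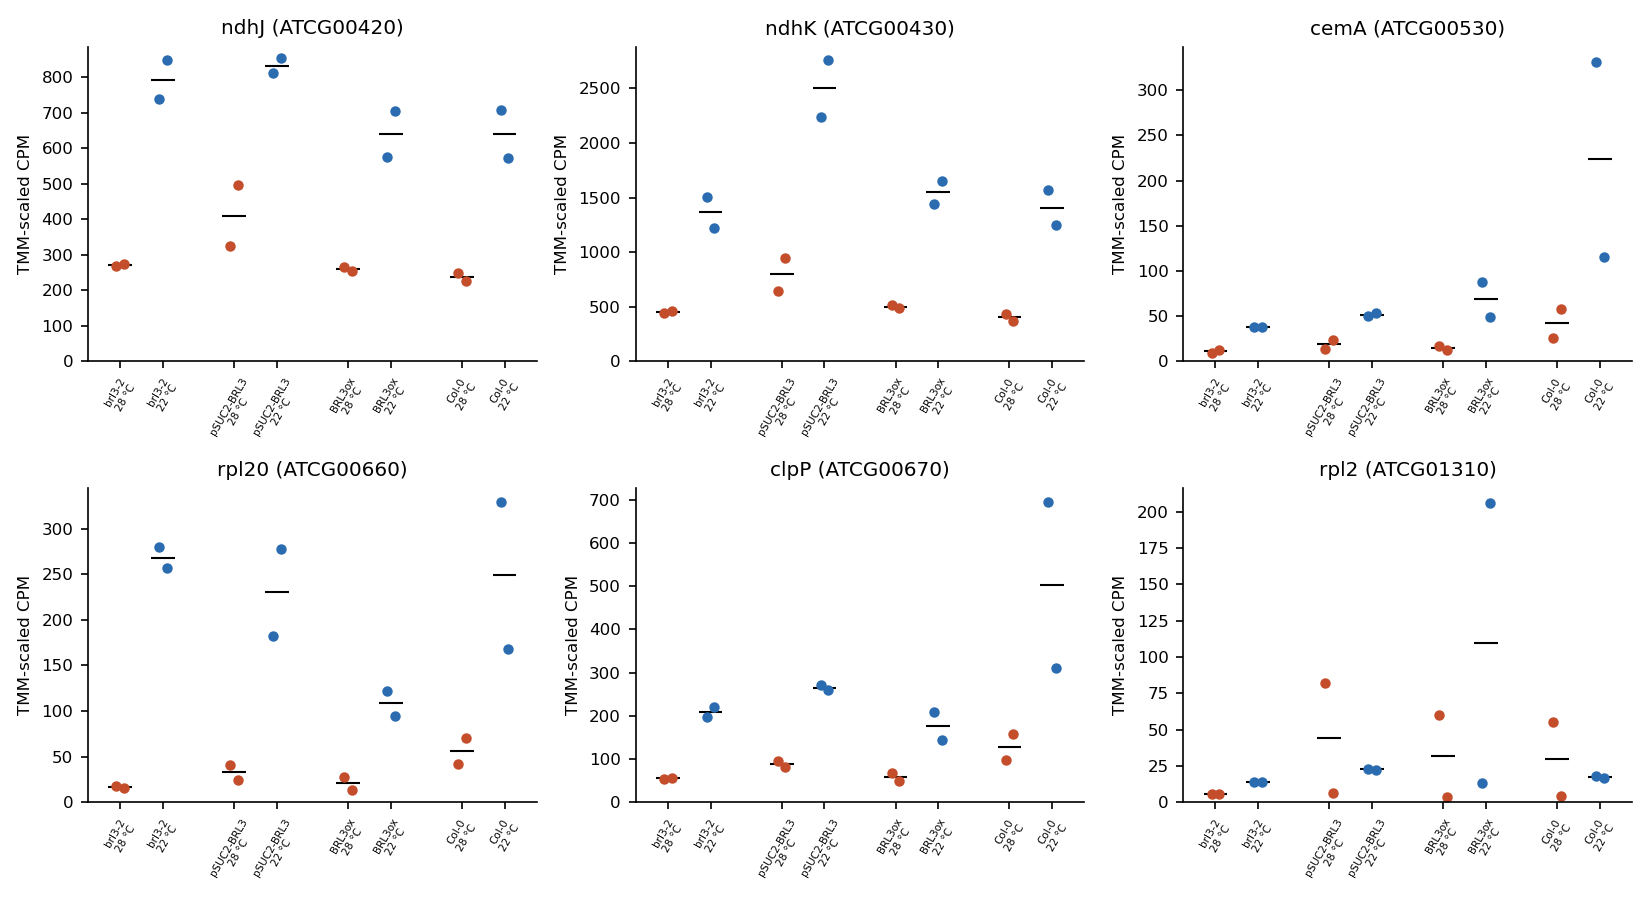
Expression of the 6 named members, in TMM-scaled CPM, by genotype and temperature. Points are libraries and lines are means of 2; ndhJ, ndhK and rpl20 at 28 °C stay below every library at 22 °C, and rpl2 jumps in 4 libraries.

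The size of the fall varied along the order of locus codes. Grouping the members by the leading digits of their code, the averaged median was -3.12 over the 8 members of the ATCG00900s, of which 8 fell, and -0.97 over the 7 members of the ATCG00800s, of which 6 fell. The ATCG00600s, which include rpl20 and clpP, had a median of -2.30, and 10 of 10 fell. The ATCG00400s, which include ndhJ and ndhK, had -1.88, and 10 of 10 fell. The ATCG00700s had -1.74, and 9 of 10 fell. Over all genes 33.5% fell in this averaged comparison. The same 2 blocks stood apart more in brl3-2, at -3.38 over the ATCG00900s and -0.13 over the ATCG00800s, with 5 of 8 and 1 of 7 called down, where 23.3% of all genes were. In Col-0 they stood at -3.48 and -1.82. Further blocks are not listed here, among them the ATCG01300s. Its 2 members had medians of -0.11 in Col-0, 0.70 in brl3-2 and 0.45 in pSUC2-BRL3. The ATCG00800s include ATCG00840, with 0 to 29 counts a library. They also include ATCG00830, with 4267 counts in replicate 2 of pSUC2-BRL3 at 22 °C. These medians are a description of neighbours in code order, which can share a transcript, and were given no test.

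The nuclear partners of the plastid complexes moved in the same direction at 28 °C. A list of 24 nuclear genes for subunits of Rubisco, the photosystems, the cytochrome complex and the ATP synthase fell in the averaged comparison in 24 of 24 cases, where 33.5% of all genes fell, with a median of -1.25. In single genotypes 24 fell in Col-0, pSUC2-BRL3 and BRL3ox and 23 in brl3-2. The Rubisco small subunit genes changed most: RBCS1B by -2.74, RBCS1A by -2.61, RBCS2B by -2.41 and RBCS3B by -1.89. The small subunit genes are near-identical copies, so their single values are uncertain.

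Nuclear genes for plastid transcription gave calls in both directions. Of 20 listed genes 10 fell and 7 rose in the averaged comparison, where 33.5% of all genes fell and 35.9% rose, with a median of -0.18. All 6 sigma factor genes, which direct the plastid-encoded polymerase to promoters, fell, from SIGF at -1.04 (SE 0.09) and SIGA at -1.02 to SIGC at -0.30, a subset singled out after its values were seen. SCA3, whose product is a phage-type plastid RNA polymerase, rose by 1.09 (SE 0.21, adjusted p = 0.000646). AT5G15700, also on that list, rose by 1.6. Among 14 genes for plastid RNA processing and stability 8 fell and 4 rose, against the same shares over all genes, with a median of -0.20. CRB, a plastid RNA-binding protein, fell by 1.73, and its relative CSP41A fell by 1.42. RBP31, which stabilizes plastid transcripts, fell by 1.33, while the pentatricopeptide protein gene PGR3 rose by 0.98.

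Markers of other cells gave these values beside the fall. Summed over 6 stomatal lineage genes, CPM spanned 27.2 to 38.9 at 28 °C, against 34.6 to 52.3 at 22 °C, and 5 of 6 fell on average, where 33.5% of all genes did. The shoot apex sum was 12.4 to 21.4 CPM at 28 °C, against 15.3 to 35.1 CPM at 22 °C, with WUS and CLV3 at or near 0; ANT fell by 1.02 on average and STM rose by 0.47. The root sum was 7.19 to 30.4 CPM at 28 °C, against 5.28 to 28.6 CPM at 22 °C, and of its 2 tested genes PHT1;4 fell by 0.69 and PHT1;1 did not pass. The part of the tissue's cell makeup in the plastid result was not tested.

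The next comparison asked how each line differed from Col-0 at the same temperature. These comparisons share the Col-0 libraries, and the members varied unusually in them. At 22 °C the Col-0 replicates lay at least 2-fold apart in 40 of 119 members, 33.6%, against 1.66% of all genes tested, and replicate 1 was the higher by a median of 0.80 on the log2 scale. At 28 °C 28 of 119 members, 23.5%, were 2-fold apart, against 0.819% of all genes tested, with replicate 2 the higher. In brl3-2 only 4 members at 22 °C, 3.36%, and 1 at 28 °C, 0.840%, were that far apart, against 0.468% and 0.502% of all genes tested.

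In brl3-2 most members sat below Col-0, but few passed. At 22 °C 23 fell, where 1.61% of all genes fell and 0.629% rose, with a median of -1.42 against -0.03 over all genes. cemA had 38.1 and 38.2 CPM in brl3-2 at 22 °C, against 332 and 115 CPM in Col-0 (log2 -2.55, SE 0.51, adjusted p = 0.0343). ndhJ, at 738 and 848 CPM in brl3-2, against 709 and 572 CPM in Col-0, did not pass (log2 0.31, adjusted p = 0.430). At 22 °C 0 members passed without replicate 1 of Col-0 or without either brl3-2 library, against 23 with all libraries. The count was 7 and 3 without replicate 1 or 2 of brl3-2 at 28 °C, 14 without either Col-0 library at 28 °C, 11 without either pSUC2-BRL3 library at 22 °C and 6 without either BRL3ox library at 28 °C. It was 62 and 61 without replicate 1 or 2 of BRL3ox at 22 °C, 71 without the 2 doubted libraries, 53 with DESeq2 and 7 with the replicate block.

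At 28 °C 27 members were lower in brl3-2 than in Col-0, where 1.43% of all genes were lower and 2.19% higher, with a median of -1.17 against 0.00. ATCG00340 had 23.8 and 25.7 CPM in brl3-2, against 112 and 353 CPM in Col-0 (log2 -3.23, SE 0.52, adjusted p = 0.00864). ATCG00120 had 43.2 and 39.5 CPM in brl3-2, against 218 and 639 CPM in Col-0 (log2 -3.38, adjusted p = 0.0314). rpl20 had 17.6 and 15.9 CPM in brl3-2 at 28 °C, against 42.3 and 70.4 CPM in Col-0 (log2 -1.75, adjusted p = 0.0438). The brl3-2 replicates agreed closely in these members while those of Col-0 were far apart. The count was 10 and 1 without replicate 1 or 2 of Col-0 at 28 °C, and 1 and 0 without replicate 1 or 2 of brl3-2 at 28 °C. It was 15 without any 1 library of brl3-2 or pSUC2-BRL3 at 22 °C, and 50 without either BRL3ox library at 22 °C.

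pSUC2-BRL3 gave calls in both directions at 22 °C. There 43 members were lower and 6 higher than in Col-0, where 5.56% of all genes were lower and 5.05% higher, with a median of -1.13. ATCG00470 had 6422 and 4604 CPM in pSUC2-BRL3, against 3074 and 1460.3 CPM in Col-0 (log2 1.28, SE 0.29, adjusted p = 0.0211). ndhK had 2243 and 2760.3 CPM in pSUC2-BRL3, against 1568 and 1247 CPM in Col-0 (log2 0.83, adjusted p = 0.0299). cemA was lower, at 50.1 and 53.0 CPM in pSUC2-BRL3 against 332 and 115 CPM in Col-0 (log2 -2.12, adjusted p = 0.0247). ATCG00720 had 86.7 and 74.8 CPM in pSUC2-BRL3, against 953 and 446 CPM in Col-0 (log2 -3.11, adjusted p = 0.0215). The count was 2 without replicate 1 of Col-0, 4 and 0 without replicate 1 or 2 of pSUC2-BRL3 at 22 °C, and 32 and 30 without replicate 1 or 2 of brl3-2 at 28 °C.

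At 28 °C only ATCG00010 differed between pSUC2-BRL3 and Col-0 by edgeR, where 0.229% of all genes were higher and 0.629% lower. It had 27.7 and 26.0 CPM in pSUC2-BRL3, against 9.29 and 8.69 CPM in Col-0 (log2 1.58, SE 0.24, adjusted p = 0.0131). The median over members was -0.58, against 0.00 over all genes. DESeq2 called 29 members, 15 passed without the 2 doubted libraries and 28 without either BRL3ox library at 22 °C. The call of ATCG00010 was lost without either Col-0 library at 28 °C or without replicate 1 of pSUC2-BRL3 at 28 °C, while its difference stayed between 1.53 and 1.62 over the 16 fits.

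At 22 °C BRL3ox had the most called members against Col-0 with all libraries kept, an order that did not hold without its replicate 2. There 77 members were lower, where 14.7% of all genes were lower and 15.6% higher, with a median of -1.63 against -0.05. clpP had 208 and 143 CPM in BRL3ox, against 695 and 311 CPM in Col-0 (log2 -1.52, adjusted p = 0.00994). ATCG00180 had 51.9 and 15.7 CPM in BRL3ox, against 357 and 151 CPM in Col-0 (log2 -2.91, SE 0.58, adjusted p = 0.00676). The BRL3ox replicates lay at least 2-fold apart in 35 of 119 members, 29.4%, with replicate 2, a doubted library, the lower by a median of 0.57. The count was 12 without replicate 1 of Col-0, 30 without replicate 2 of BRL3ox and 38 without the 2 doubted libraries. Without replicate 2 of BRL3ox the counts of the other lines at 22 °C were 61 in brl3-2 and 67 in pSUC2-BRL3, both above BRL3ox, and without the 2 doubted libraries they were 71 and 77. In this comparison 12 of the 20 nuclear genes for plastid transcription also fell, and of the 24 nuclear partners 6 rose and 1 fell.

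At 28 °C 11 members were lower in BRL3ox than in Col-0, where 1.24% of all genes were lower and 0.829% higher, with a median of -0.97 against 0.01. ATCG00610 had 0.309 and 0.208 CPM in BRL3ox, against 1.77 and 3.91 CPM in Col-0 (log2 -3.44, adjusted p = 0.0206). ATCG00540 had 21.6 and 12.8 CPM in BRL3ox, against 58.3 and 157 CPM in Col-0 (log2 -2.65, adjusted p = 0.0169). The count was 0 without either BRL3ox library at 28 °C or without replicate 2 of Col-0 at 28 °C, 5 without any 1 library of brl3-2 or of pSUC2-BRL3 at 22 °C, 17 without replicate 2 of pSUC2-BRL3 at 28 °C, and 46 without either BRL3ox library at 22 °C. DESeq2 called 45 and the fit without the 2 doubted libraries 50. Across the lines 16 of 119 members were lower than in Col-0 in all 3 at 22 °C, where 0.858% of all genes were. At 28 °C 9 were lower in both brl3-2 and BRL3ox, where 0.415% of all genes were, but each count rests on the same pair of Col-0 libraries.

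**Figure D4:**
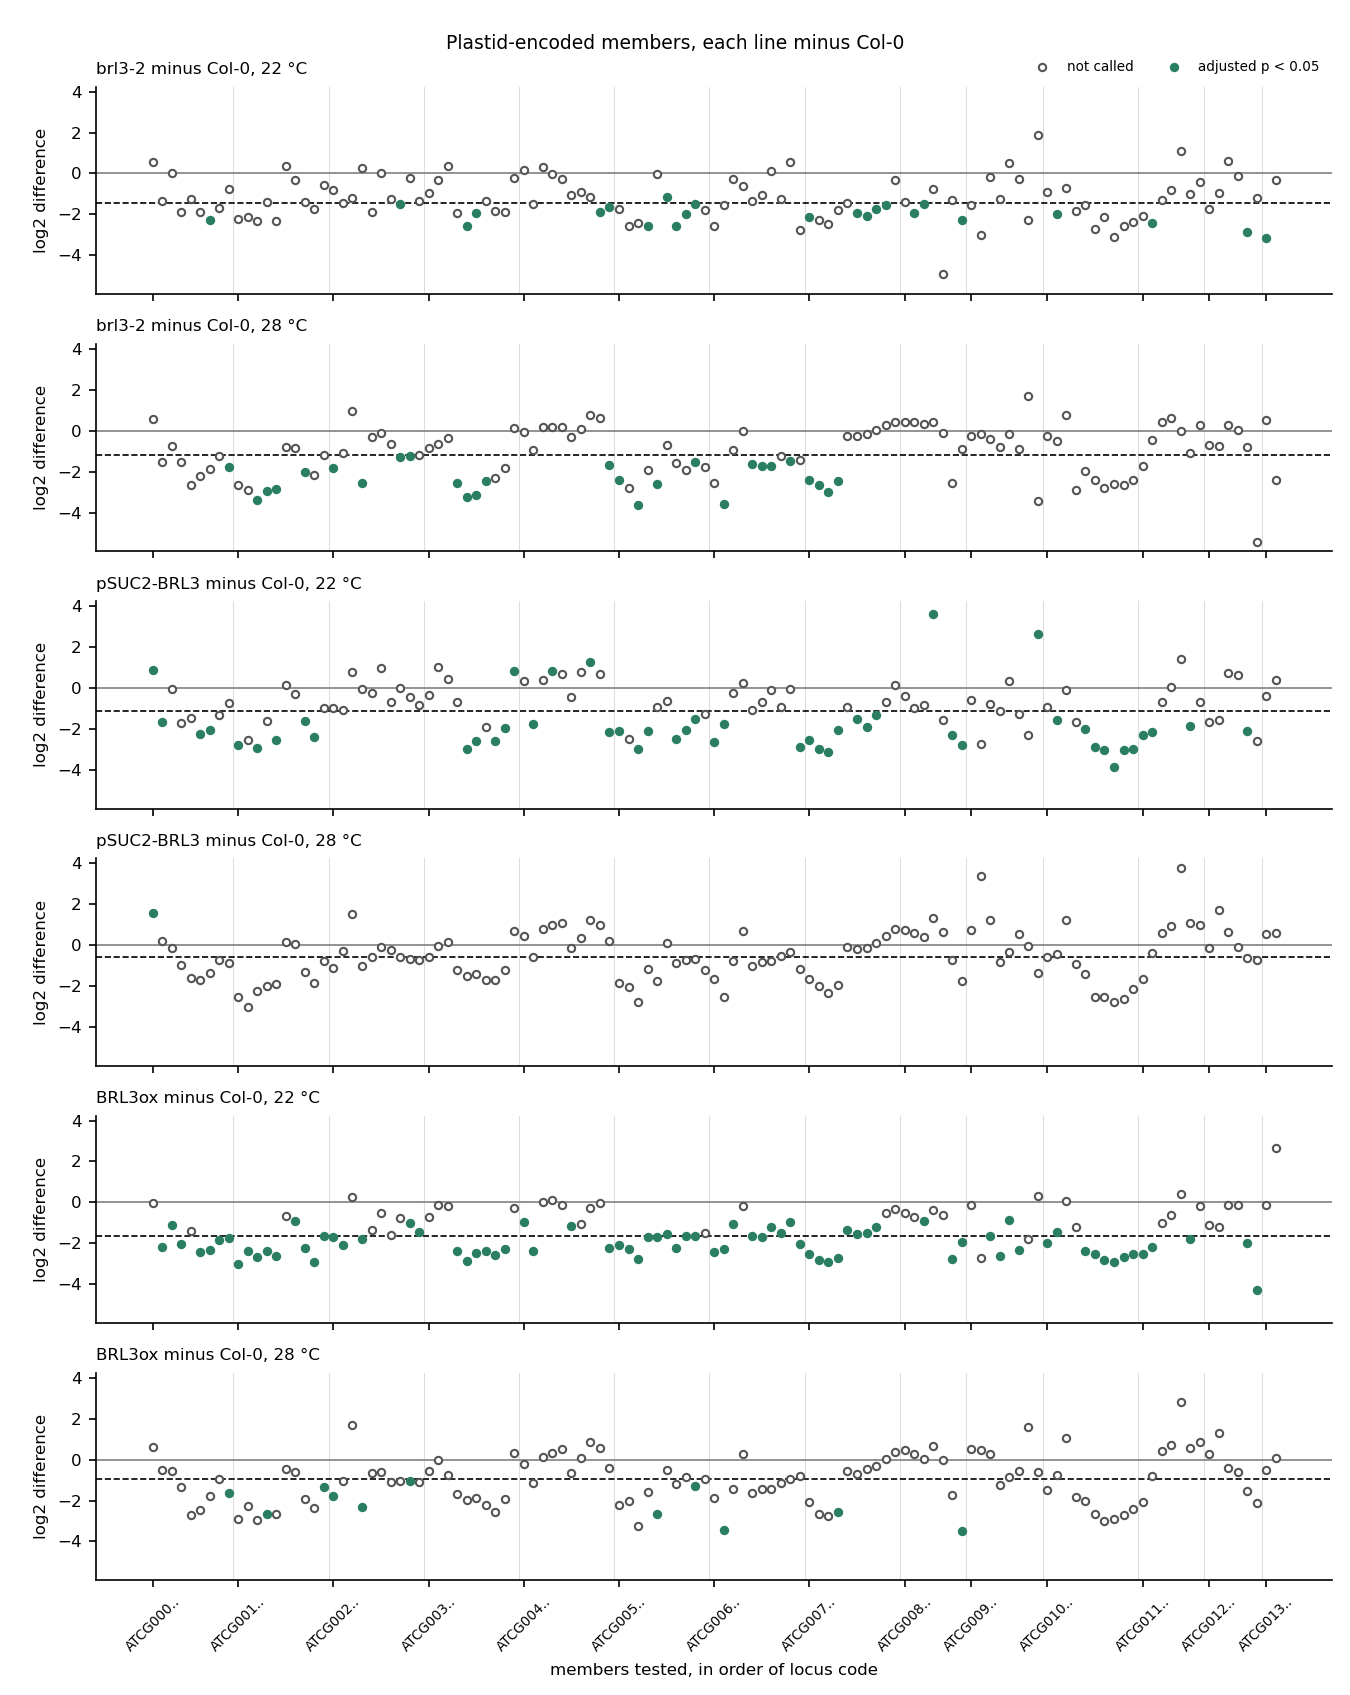
Log2 difference of each line minus Col-0 for the 119 members tested, in order of locus code, at 22 °C and 28 °C. Filled points passed an adjusted p below 0.05 and dashed lines are medians over members; BRL3ox at 22 °C has the most filled points, 77, and pSUC2-BRL3 at 28 °C has 1.

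pSUC2-BRL3 was also set against brl3-2, the mutant it was made in. At 22 °C 3 members were higher, where 0.151% of all genes were higher and 0.156% lower, with a median of 0.06. ATCG00480 had 9052 and 5110.1 CPM in pSUC2-BRL3, against 1191 and 1265 CPM in brl3-2 (log2 2.53, SE 0.29, adjusted p = 0.0199). ATCG00470 had 6422 and 4604 CPM in pSUC2-BRL3, against 1035 and 1026 CPM in brl3-2 (log2 2.42, SE 0.30, adjusted p = 0.0277). The third, ATCG00390, was higher by 1.05 (adjusted p = 0.0297). These groups did not overlap, but none of the 3 calls held with the replicate block or without any 1 brl3-2 library, and the count was 11 without either BRL3ox library at 22 °C.

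At 28 °C 3 other members were higher in pSUC2-BRL3, where 0.332% of all genes were higher and 1.28% lower, with a median over members of 0.59. ATCG00490 had 184 and 269.9 CPM in pSUC2-BRL3, against 51.5 and 73.6 CPM in brl3-2 (log2 1.86, SE 0.38, adjusted p = 0.0386). ATCG00920 had 22.6 and 14.0 CPM in pSUC2-BRL3, against 4.96 and 7.02 CPM in brl3-2 (log2 1.61, adjusted p = 0.0366). ATCG01210 had 13 and 21.3 CPM in pSUC2-BRL3, against 2.56 and 3.74 CPM in brl3-2 (log2 2.45, adjusted p = 0.0428). Whether any of these 3 codes are copies of 1 gene was not checked. The count was 0 without any 1 library of pSUC2-BRL3 or any 1 of brl3-2 at 28 °C, and 12 without either BRL3ox library at 22 °C. At 28 °C 66 members had both pSUC2-BRL3 libraries above both of brl3-2 and 1 had both below, where 26% of all genes tested lay above and 27% below.

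The last comparison asked whether the response to 28 °C differed between a line and Col-0, as an interaction term. In brl3-2 the difference was above 0 in 2 called members and below 0 in 1, where 0.517% of all genes were called above and 0.361% below, with a median difference of 0.01. ATCG00480 rose by 0.74 in brl3-2 and fell by 1.75 in Col-0, where it had 1308 and 1350.01 CPM at 28 °C, against 5367 and 3564 CPM at 22 °C (difference 2.49, SE 0.39, adjusted p = 0.0225). ATCG00810 had 146 and 182 CPM in brl3-2 at 28 °C, against 110.4 and 103 CPM at 22 °C, where Col-0 had 115 and 129 CPM against 523 and 301 CPM (difference 2.37, SE 0.47, adjusted p = 0.0468). ATCG00680 fell further in brl3-2, at 80.5 and 78.5 CPM at 28 °C against 2364 and 2370.4 CPM at 22 °C, than in Col-0, at 164 and 285 CPM against 1894 and 1270.5 CPM (difference -2.08, SE 0.41, adjusted p = 0.0468).

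In pSUC2-BRL3 the difference was above 0 in 3 called members, where 0.853% of all genes were called above and 1.1% below, with a median over members of 0.58. They were those that were higher than in brl3-2 at 28 °C. ATCG01210 differed by -0.62 between temperatures in pSUC2-BRL3, which did not pass (adjusted p = 0.319), and fell by 3.92 in Col-0 (difference 3.30, SE 0.68, adjusted p = 0.0389). ATCG00490 fell by 1.11 in pSUC2-BRL3 and fell by 3.49 in Col-0, where it had 134 and 261 CPM at 28 °C, against 2489 and 1940.4 CPM at 22 °C (difference 2.38, SE 0.53, adjusted p = 0.0461). ATCG00920 fell by 1.36 in pSUC2-BRL3 and fell by 3.36 in Col-0 (difference 2.00, SE 0.44, adjusted p = 0.0465). In BRL3ox only ATCG00920 passed, where 1.24% of all genes were called above 0 and 1.34% below; it fell by 1.43 there (difference 1.93, SE 0.45, adjusted p = 0.0478). None of these 7 calls held without replicate 1 of Col-0 at 22 °C, without either Col-0 library at 28 °C or without any 1 of the brl3-2 libraries.

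**Figure D5:**
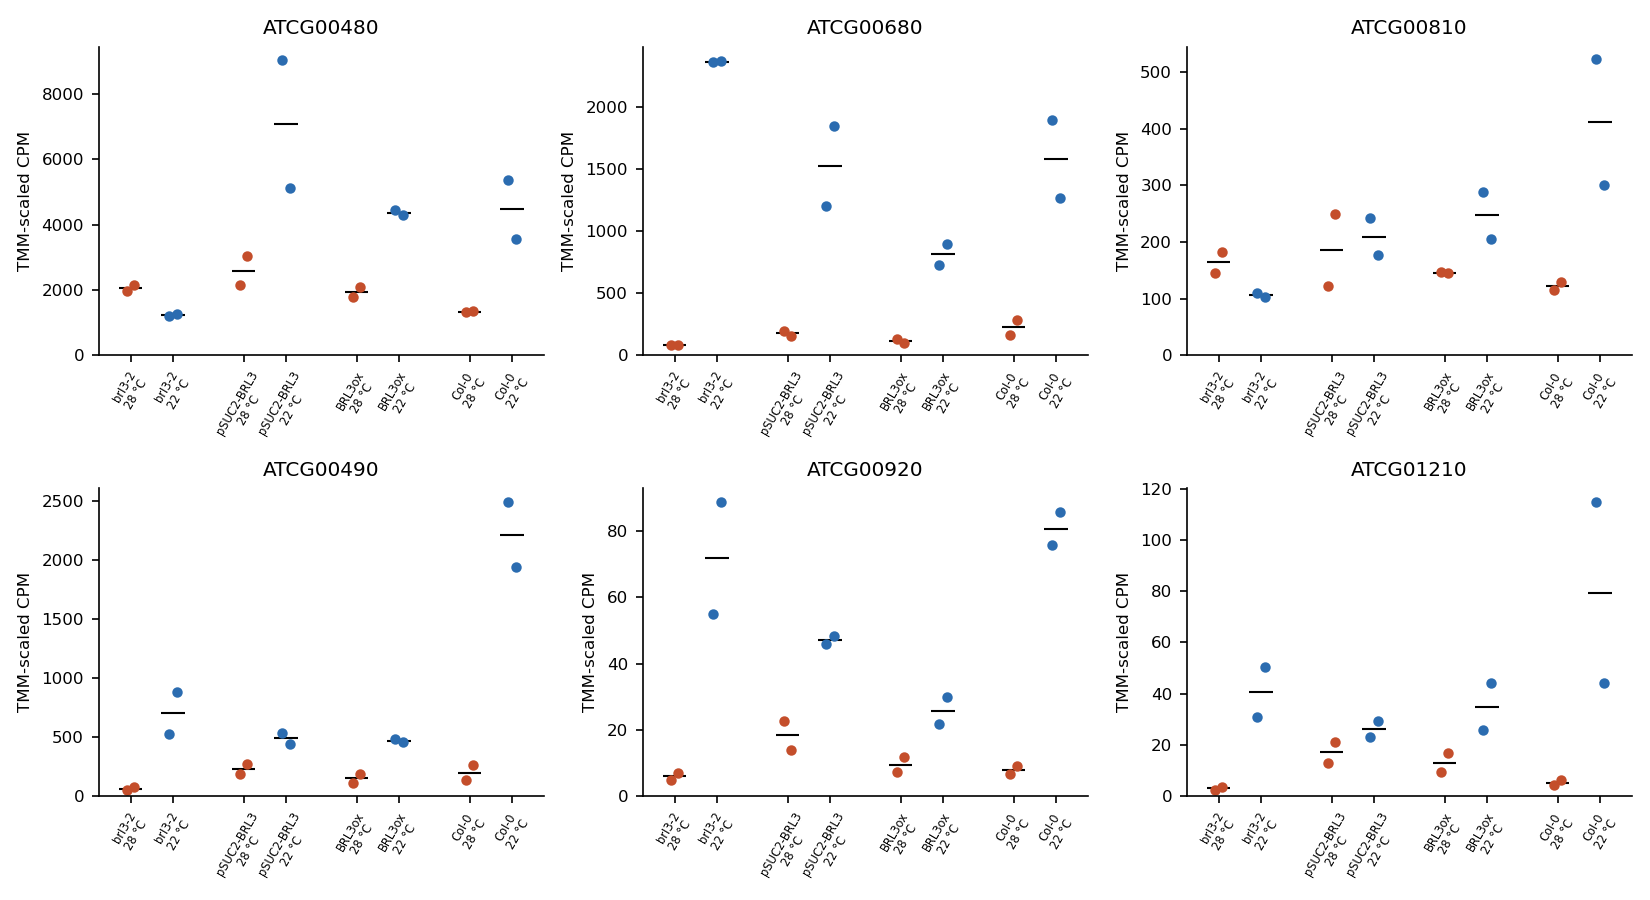
Expression of the 6 members whose response to 28 °C differed from that in Col-0, in TMM-scaled CPM; points are libraries and lines are means of 2. ATCG00480 is higher at 28 °C than at 22 °C in brl3-2 and lower in the other 3 genotypes, and ATCG00490 at 22 °C stands at 2489 and 1940.4 CPM in Col-0, above every other group.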

How the data were processed

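The authors deposited raw read counts per gene for 16 libraries; every column belonged to a sample. Per the submitters' processing notes the tools were FastQC 0.11.2, Trimmomatic 0.38, HISAT2 2.1 on TAIR10, featureCounts 1.6.2 and edgeR 3.34.1. Per the labels' protocols DNase-treated RNA was made into stranded mRNA libraries. How multi-mapping reads were handled, which annotation and strand option were used and the read layout are not stated in the sources, so antisense, overlapping and repeated genes are uncertain. A line without a gene name, 0.00132% to 0.00463% of counts, was left out.

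All genes were fitted together with edgeR 4.0.16 under R 4.3.3: TMM scaling, an expression filter at 10 counts and a total of 15, a coefficient per group, 8 residual degrees of freedom, quasi-likelihood F-tests, two-sided, Benjamini-Hochberg over 20505 genes in each of 16 comparisons. The steps were also run on simulated counts, with genes drawn independently and a spread fitted over all genes. Between the Col-0 replicates at 22 °C 33.6% of members lay at least 2-fold apart, against 1.66% of all genes tested. The simulation therefore does not bear on the calls of members. CPM are TMM-scaled, and 95% intervals of count ratios are exact and cover counting error only. Replicates were counted as 2-fold apart with 1 CPM added to each.

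The members and all gene lists were chosen with earlier results of these data known. The rule for named members took clpP and, per comparison, the 4 largest rises and 4 largest falls among called members whose groups do not overlap (no overlap condition for the average and interactions), plus up to 4 genes of a nuclear list; of these, codes without a gene name were limited to about 2 per direction, chosen after their values were seen, as were the other members tied to a gene. Codes were tied to genes through the reference's notes, matched with BLAST 2.17.0, and 6 are printed; 1 gene is not reported here. The rule had also asked for further genes by symbol and for grouping by role, which were not used here because the remaining codes carry no name in these sources. Alternatives were DESeq2 1.42.0, its size factors in edgeR, scaling on nuclear genes, omitting the filter, fitting a replicate block, and dropping 1 library at a time. Added after seeing the data were leaving out the 2 doubted libraries and library totals without scaling factors. Figures used matplotlib 3.10.9.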

Additional observations from a re-analysis of the deposited data

Results flagged for a closer look

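In 7 cases the response of a member to 28 °C differed between a line and Col-0 by a test of the difference itself (edgeR quasi-likelihood, interaction term, 2 libraries per group). Against Col-0, the response of brl3-2 differed by 2.49 on the log2 scale in ATCG00480, by 2.37 in ATCG00810 and by -2.08 in ATCG00680. The response of pSUC2-BRL3 differed by 3.30 in ATCG01210, by 2.38 in ATCG00490 and by 2.00 in ATCG00920. The response of BRL3ox differed by 1.93 in ATCG00920. Adjusted p-values ran from 0.0225 to 0.0478. Of the 16 fits without 1 library, the call held in 9 for ATCG00480, in 5 for ATCG00810, in 2 for ATCG00680, in 3 for ATCG01210, in 2 for ATCG00490, and in 3 and 4 for ATCG00920 in pSUC2-BRL3 and BRL3ox. The direction was kept in each of those fits.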

How the results depend on the processing

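The numbers of members called by edgeR in the report were recomputed under 7 alternatives and with each library left out. For 28 °C against 22 °C, the calls were 106 in Col-0, 86 in brl3-2, 69 in pSUC2-BRL3, 84 in BRL3ox and 111 on average. DESeq2, its size factors, nuclear scaling, no filter and the replicate block each stayed within 1.5 times of these. Library totals alone gave 53 in BRL3ox; that scaling moved the median of all genes in the single genotypes to between 0.55 and 0.66 on the log2 scale and the members' median to -1.69 in Col-0, -1.65 in brl3-2, -1.0 in pSUC2-BRL3 and -1.12 in BRL3ox. Leaving out 1 library gave 70 to 111 in Col-0, 67 to 92 in brl3-2, 47 to 84 in pSUC2-BRL3, 48 to 95 in BRL3ox and 107 to 112 on average. Against Col-0 the calls were for brl3-2 23 at 22 °C and 27 at 28 °C, for pSUC2-BRL3 49 and 1, and for BRL3ox 77 and 11. With DESeq2, brl3-2 had 53 at 22 °C and 51 at 28 °C, pSUC2-BRL3 29 at 28 °C, BRL3ox 45 at 28 °C, pSUC2-BRL3 against brl3-2 10 at 22 °C and 16 at 28 °C, and the interactions 15, 7 and 4 in brl3-2, pSUC2-BRL3 and BRL3ox. Without the filter, pSUC2-BRL3 had 3 and BRL3ox 29 at 28 °C, pSUC2-BRL3 against brl3-2 5 and 5, and the interactions of brl3-2 and pSUC2-BRL3 5 and 5. Without the 2 doubted libraries, brl3-2 had 71 at 22 °C and 51 at 28 °C, pSUC2-BRL3 77 and 15, BRL3ox 38 and 50, pSUC2-BRL3 against brl3-2 15 and 10, and the interactions 20, 17 and 3. Library totals alone gave brl3-2 8 at 22 °C, pSUC2-BRL3 3 and BRL3ox 5 at 28 °C, and the interactions of pSUC2-BRL3 and BRL3ox 1 and 0. Leaving out 1 library gave, at 22 °C and 28 °C, 0 to 62 and 0 to 50 in brl3-2, 0 to 67 and 0 to 28 in pSUC2-BRL3, 12 to 80 and 0 to 46 in BRL3ox, 0 to 11 and 0 to 12 in pSUC2-BRL3 against brl3-2, and 0 to 13, 0 to 7 and 0 to 14 in the interactions. The cause of these moves was not tested. The replicate numbers were not taken as pairing the libraries, since over 28 pairs of groups the correlation of deviations ran from -0.387 to 0.318 over all genes, with 10 over 0.1, and from -0.771 to 0.619 over members, with 9 over 0.1. Among the 28 °C groups the 6 pairs ran from 0.0944 to 0.318 over all genes, all above 0, and from -0.0990 to 0.619 over members. Whether replicates at 28 °C shared a batch was not tested. With the replicate block brl3-2 had 7 at 22 °C, BRL3ox 5 at 28 °C, pSUC2-BRL3 against brl3-2 0 at 22 °C and the interaction of brl3-2 1, and the other counts stayed within 1.5 times. For single members, 92 named results were called, and 366 of their 2116 recomputed values, 17.3%, lost the call, with no change of direction. Of 1472 recomputed values of the 64 that were not called, 56 gained one. Low counts limit 11 members with under 10 counts a library on average, and 2 libraries a group limit the comparisons between lines.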
